A study of Saccharomyces cerevisiae with 40 samples.

Results

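The genes followed here encode factors that build ribosomal subunits in the nucleolus and nucleus of budding yeast. They are 45 of the 5557 genes named by the probes of the arrays. Of these, 30 were listed by name and 15 were added because their symbol is UTP followed by a digit, the series of names given to proteins of the small-subunit processome.

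In yeast, the precursor of most ribosomal RNA is made by RNA polymerase I, and small nucleolar RNPs and a large early assembly called the 90S pre-ribosome fold, modify and cut it. Separate sets of factors and RNA helicases then mature the large subunit, and late factors guide it out of the nucleus. The genes of these factors form a regulon known to rise and fall together with growth conditions, under nutrient-sensing kinases and repressors such as Dot6.

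Cultures of Saccharomyces cerevisiae Sigma1278b, the only strain used, grew in minimum medium with glucose and a single nitrogen source and were harvested in exponential growth. The 20 sources were alanine, ammonium (given as ammonium sulfate), arginine, asparagine, aspartate, citrulline, GABA, glutamate, glutamine, isoleucine, leucine, methionine, ornithine, phenylalanine, proline, serine, threonine, tryptophan, tyrosine and valine, and each was set against urea. All compounds were at 10 mM except tryptophan at 5 mM. Each of the 40 two-colour arrays held polyA RNA from a source beside polyA RNA from urea, with 2 arrays to a source, called replicate 1 and replicate 2. Replicate 1 carried the source in Cy5 and replicate 2 in Cy3 for 18 sources, whereas tryptophan and tyrosine were in Cy3 on both arrays.

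Values are log2 ratios of source over urea, so a positive value means more RNA on the source than on urea. Each array was centred near 0 as deposited, and a value therefore shows change relative to the other genes of that array and not per cell. RNA of whole cultures was measured, so less RNA in every cell and fewer cells holding the RNA cannot be told apart. An array gave a value for 3294 to 5218 genes (median 4708) and for 32 to 45 of the members (median 42). Precision is limited by how few arrays there are. Whether a source's 2 arrays hold RNA of separate cultures is not in the labels, and the p-values then reflect only array-to-array spread, possibly technical. UGA4, the GABA permease gene, was at 4.42 ± 0.18 (SE, n = 2 arrays) on GABA, and DUR3, the urea transporter gene, lay between -3.92 and -1.88 on the 20 sources.

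A gene was tested if it had a value on at least 30 of the 40 arrays, and on a source if both arrays had one. That left 39 members among 4332 genes. ERB1, MAK5, RPF2, RRP9, UTP13 and UTP20 had values on 19 to 29 arrays and were not tested. Fitted values below come from 1 limma model over all arrays with a term for each source and 1 for the dye, and an adjusted p under 0.05 counts as a rise or a fall.

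Few values of the ribosome biogenesis genes lay far from urea. The 704 tested member values ran from -1.17 (BRX1 on asparagine) to 0.77 (NOP56 on asparagine), and 1 of them lay beyond 1 in size, which is 0.142% against 2.24% of the values of all genes. Their median size was 0.17 on the log2 scale, as was that of all genes. The SD of a gene's fitted values over the sources had a median of 0.20 for the members and 0.16 for all genes. Of the member values, 18 (2.56%) were rises and 75 (10.7%) were falls, beside 10.1% and 9.42% of the values of all genes. Without the dye term these counts were 4 and 39, and with replicate number as a block in place of dye they were 10 and 67. For the 18 sources with both dye orientations the block coincides with the dye term and leaves the fitted values unchanged. Leaving the dye term out does not change them there either. Neither fit is therefore a separate check of those values, and calls that ended there in either fit ended at the same fitted value. What differs is the estimated spread and, through it, the p-values.

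**Figure D1:**
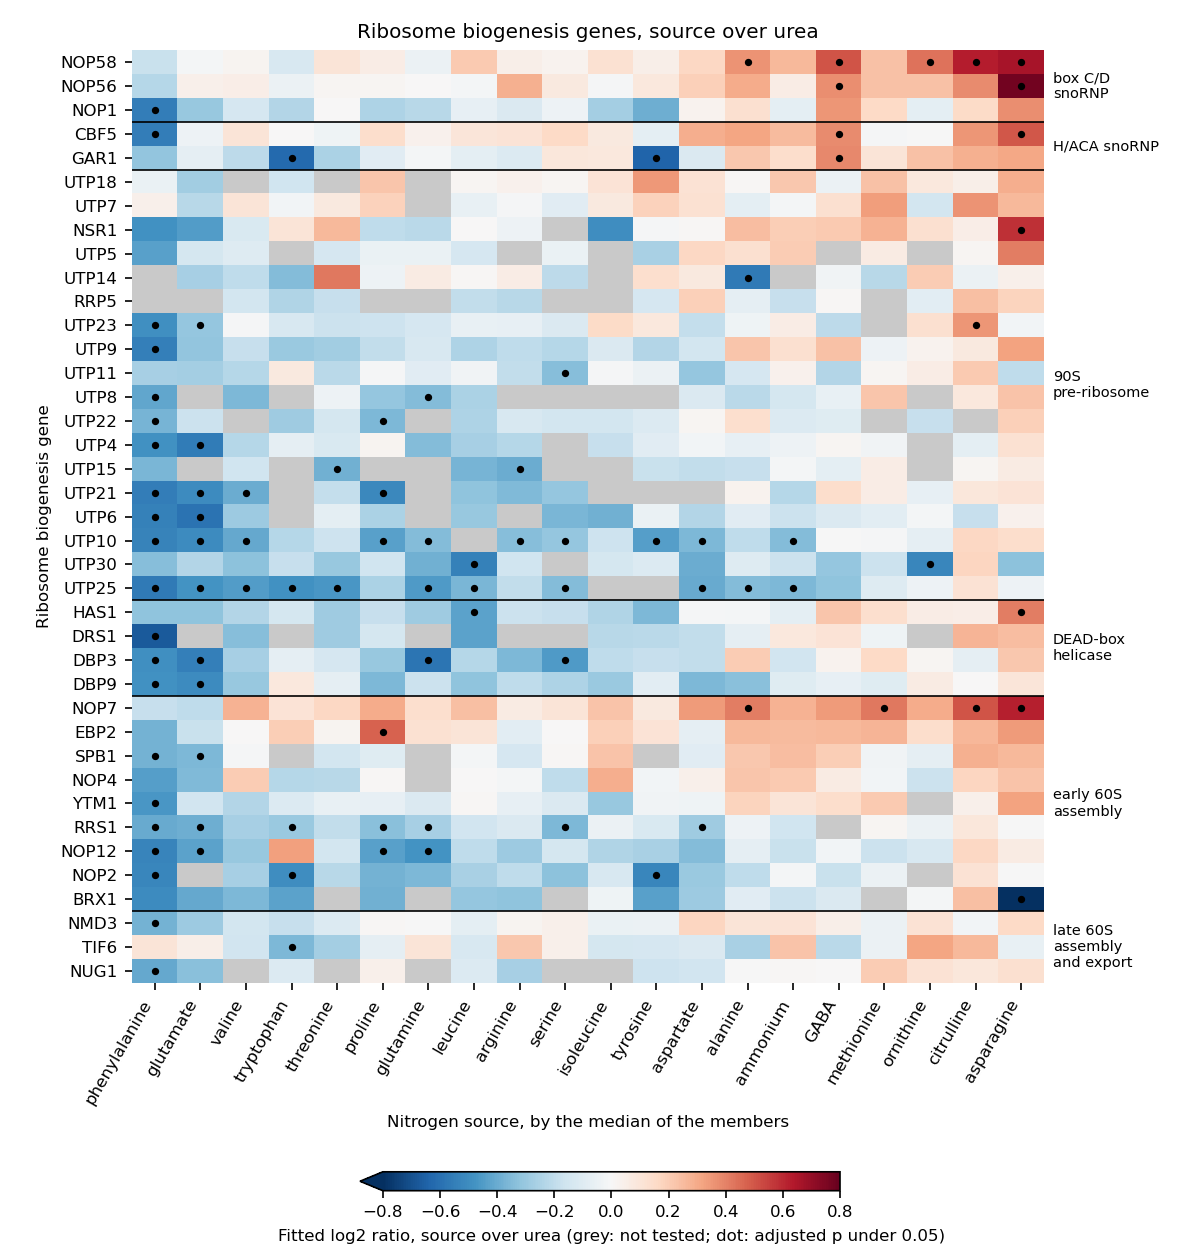
Fitted log2 ratios of source over urea for the 39 tested members (down the page, grouped by role) on 20 nitrogen sources (left to right, by the median of the members). Blue is lower and red higher than on urea, grey cells were not tested and dots mark adjusted p under 0.05; phenylalanine holds 21 dots, all falls, and asparagine 6 of the 18 rises.

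Over all sources together, 26 of 39 members (66.7%) passed limma's moderated F-test against urea, where 63.7% of all genes tested did. The share of members that passed was thus near that of genes in general. UTP25 had the largest F (8.18, adjusted p = 1.51e-05), followed by UTP10 (7.85), NOP58 (5.86), RRS1 (5.66), NOP7 (5.44) and GAR1 (4.80). Among the 39 members, 25 had falls and no rise, 5 had rises and no fall, 4 had both and 5 had neither. The mean over sources was below 0 for 30 of them.

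Phenylalanine gave the lowest values. There 0 of 37 tested members rose and 21 fell, where 10.6% and 9.8% of all genes tested did. The median member was at -0.43, 35 of 37 lay below 0, and the 21 falls ran from -0.67 to -0.37. Both arrays showed this: the median over the members with a value was -0.44 on replicate 1, with 39 of 42 below 0, and -0.39 on replicate 2, with 38 of 41 below 0. Those medians ranked 1 and 3 from the lowest of the 40 arrays. Of 38 members read on both arrays, 34 were below 0 on both, 3 had opposite signs and 1, TIF6, was above 0 on both.

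DRS1, a DEAD-box helicase gene of large-subunit assembly, read -0.71 and -0.64 on the phenylalanine arrays and was fitted at -0.67 ± 0.22 (SE, n = 2, adjusted p = 0.0377). UTP25, of the small-subunit processome, read -0.83 and -0.30 and was fitted at -0.57 ± 0.12 (adjusted p = 0.00294). CBF5, the pseudouridine synthase gene of H/ACA snoRNPs, read -0.42 and -0.69 and was fitted at -0.55 ± 0.12 (adjusted p = 0.00197). All 6 of these readings were below 0, and the rule that named DRS1 and UTP25 here required that of theirs. Tests with a single phenylalanine array called 0 members without replicate 1 and 10 without replicate 2, and 13 were called without the dye term. With the replicate block the calls of DRS1 (adjusted p = 0.0713) and DBP3 (adjusted p = 0.0549) ended, at unchanged fitted values.

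Glutamate came next. Of 34 members 0 rose and 11 fell, where 10.5% and 9.87% of all genes did, and the median member was at -0.31 with 32 below 0. The array medians were -0.24 (37 of 43 below 0) on replicate 1 and -0.41 (33 of 34 below 0) on replicate 2, and 28 of 34 members read on both were below 0 on both. UTP6, a subunit gene of the UtpB complex of the processome, read -0.58 and -0.60 and was fitted at -0.59 ± 0.15 (n = 2, adjusted p = 0.00771). UTP4, of the UtpA complex, read -0.47 and -0.65 and was fitted at -0.56 ± 0.16 (adjusted p = 0.0166). Both genes read close to the same level on the 2 arrays. The count was 0 without replicate 1, 1 without replicate 2 and 6 without the dye term, and the call of UTP23 ended with the replicate block (adjusted p = 0.0588).

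Asparagine gave the highest values. Of 39 members 6 rose and 1 fell, where 10.4% and 14.7% of all genes did, and the median member was at 0.19 with 8 below 0. The array medians were 0.09 (16 of 44 below 0) and 0.22 (5 of 43 below 0), and of 42 members read on both arrays 23 were above 0 on both, 2 below 0 on both and 17 of opposite sign. NOP56, a core protein gene of box C/D snoRNPs, read 0.92 and 0.61 and was fitted at 0.77 ± 0.13 (n = 2, adjusted p = 8.29e-05). NOP58, its partner in the same particles, read 0.75 and 0.57 and was fitted at 0.66 ± 0.12 (adjusted p = 0.000204). These calls were among the 3 of 93 that passed without either array of their source, with adjusted p of 0.00936 and 0.0104 for NOP56 and 0.00549 and 0.0396 for NOP58. NOP7, NSR1, CBF5 and HAS1 also rose, and the call of NSR1 ended with the replicate block (adjusted p = 0.0660). The count of rises was 3 without replicate 1 and 3 without replicate 2, and 3 without the dye term.

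The fall on asparagine was that of BRX1, an early large-subunit assembly factor gene. It read -2.38 on replicate 1 and 0.04 on replicate 2 and was fitted at -1.17 ± 0.30 (n = 2, adjusted p = 0.00685), so the value rests on 1 array. Without replicate 1 it was 0.12 (adjusted p = 0.738). BRX1 had the largest residual SD of the members, 0.50, and its other fitted values lay between -0.50 and 0.24.

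On citrulline 3 of 38 members rose and 0 fell, where 5.25% and 4.87% of all genes did. The median member was at 0.14 with 5 below 0. NOP58 read 0.58 and 0.68 and was fitted at 0.63 ± 0.12 (n = 2, adjusted p = 0.0012), whereas NOP7 read 0.91 and 0.09 and was fitted at 0.50 ± 0.13 (adjusted p = 0.0147). UTP23, a processome gene, read 0.38 and 0.32. The array medians were 0.04 (21 of 44 below 0) and 0.20 (8 of 44 below 0). Over the members, the values of the citrulline arrays correlated at -0.32, the lowest of the 20 sources, where the range reached 0.44 on glutamate (members are not independent replicates). There were 2 rises without replicate 1 and 0 without replicate 2, and with the replicate block the calls of NOP7 (adjusted p = 0.0636) and UTP23 (adjusted p = 0.0567) ended.

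**Figure D2:**
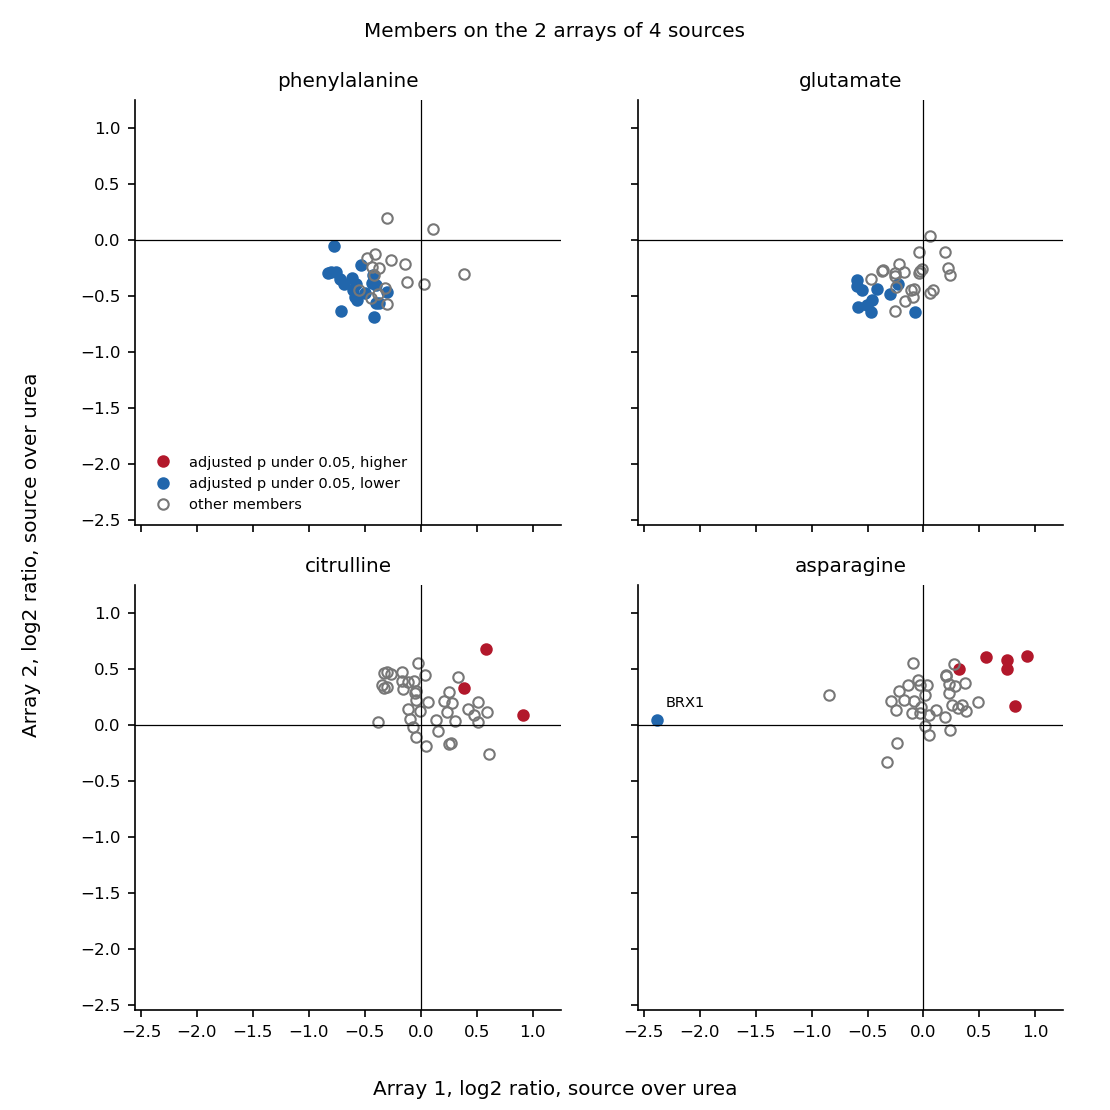
Readings of the members on replicate 1 (array 1, across) and replicate 2 (array 2, up) of phenylalanine, glutamate, citrulline and asparagine, as log2 ratios of source over urea. Filled points passed the test; 34 of 38 members lie below 0 on both phenylalanine arrays, 23 of 42 lie above 0 on both asparagine arrays, and BRX1 stands alone at -2.38 on 1 asparagine array.

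Most of the remaining sources had member medians between -0.21 and -0.10, with 0 to 6 falls each and almost no rises. The share of falls was above that of all genes on glutamine (22.2% against 12.9%), tryptophan, serine, proline, valine and tyrosine. On leucine, aspartate, threonine, arginine and isoleucine it was below. Valine lowered 3 of 36 members and raised 0, where 6.87% and 9.48% of all genes moved, with 2 falls without replicate 1 and 0 without replicate 2, and with the replicate block the call of UTP21 ended (adjusted p = 0.0546). Tryptophan lowered 5 of 32 and raised 0 (8.43% and 10.3% of all genes), with 4 falls without replicate 1, 1 without replicate 2 and 6 with the replicate block. Its falls were led by GAR1, an H/ACA snoRNP core gene, which read -0.40 and -1.01, and by NOP2, the gene of a methyltransferase of large-subunit RNA, which read -0.18 and -0.81. Tyrosine lowered 3 of 35 and raised 0 (6.62% and 8.43% of all genes), with 1 fall without replicate 1 and 6 without replicate 2. GAR1 read -0.81 and -0.64 on tyrosine and was fitted at -0.64 ± 0.13 (n = 2, adjusted p = 0.00101), the third call that passed without either array (adjusted p = 0.0426 and 0.0152). The tyrosine arrays differed for the members as a whole, with medians of -0.37 (39 of 41 below 0) and -0.02 (19 of 36 below 0).

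Proline lowered 5 of 37 members and raised 1 (7.61% and 9.6% of all genes), with 1 fall without replicate 1 and 0 without replicate 2. UTP21 read -0.58 and -0.45 and NOP12, a large-subunit RNA-binding factor gene, read -0.10 and -0.77, while EBP2, of early large-subunit assembly, rose at 0.37 and 0.58 (fitted 0.47 ± 0.15, n = 2, adjusted p = 0.0256, and 0.0592 with the replicate block). EBP2 was the only member to rise on a source where the median was below -0.10. Glutamine lowered 6 of 27 and raised 0 (12.9% and 12.1% of all genes), with 0 falls when either array was left out, and the call of UTP8 ended with the replicate block (adjusted p = 0.0517). DBP3, a DEAD-box helicase gene, read -0.41 and -0.76 on glutamine. Serine lowered 5 of 30 and raised 0 (11.3% and 12.7% of all genes), with 0 falls when either array was left out and 3 with the replicate block, which ended the calls of DBP3 and UTP10 (adjusted p = 0.0691 and 0.0539). DBP3 read -0.12 and -0.78 on serine, and RRS1, which helps bring the small 5S particle into the large subunit, read -0.28 and -0.43.

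On leucine 3 of 38 members fell and 0 rose (8.27% and 10.4% of all genes), with 0 falls without replicate 1 and 1 without replicate 2, and UTP30 read -0.70 and -0.38. On aspartate 3 of 38 fell and 0 rose (10.1% and 11.3%), on threonine 2 of 36 fell and 0 rose (8.8% and 12.7%), and both counts were 0 when either array was left out. On arginine 2 of 35 fell and 0 rose (8.91% and 8.59%), with 2 falls without replicate 1, 0 without replicate 2 and 1 with the replicate block. UTP15, of the UtpA complex, was among the falls on arginine (-0.25 and -0.55) and on threonine (-0.41 and -0.36), and both calls ended with the replicate block (adjusted p = 0.0541 and 0.0559). On isoleucine 0 of 31 members fell and 0 rose in limma's test, where 3.76% and 5.73% of all genes did, and 4 and 0 had an unadjusted p under 0.05. Its arrays differed for the members, with medians of 0.02 and -0.28.

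Where 0 members rose, the number with an unadjusted p under 0.05 above urea was 0 on phenylalanine, glutamate, glutamine, leucine, serine and isoleucine, 1 on valine, tryptophan, threonine, tyrosine and arginine, 2 on aspartate and 4 on ammonium. Where 0 fell it was 4 on GABA and 0 on methionine and citrulline.

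Alanine, ammonium, GABA, methionine and ornithine had member medians between -0.02 and 0.02. Over the members with values on all 40 arrays the medians were 0.20 on alanine and 0.23 on GABA, and leaving out 1 array gave -0.12 to 0.16 on ammonium and -0.0358 to 0.20 on GABA. Alanine raised 2 of 39, NOP7 and NOP58, and lowered 2, UTP14 and UTP25 (9.57% and 12.1% of all genes), with 0 rises when either array was left out and with 1 fall without replicate 1 and 0 without replicate 2. With the replicate block the NOP7 call on alanine ended (adjusted p = 0.0850), which left 1 rise. Ammonium lowered 2 of 38 and raised 0 (10.7% and 10.2%), with 0 falls when either array was left out. The ammonium arrays had medians of 0.19 and -0.19 for the members. GABA raised 4 of 37 and lowered 0 (10.2% and 11%), with 0 rises without replicate 1 and 2 without replicate 2. All 4 belong to snoRNPs: NOP58 (0.85 and 0.15), GAR1 (0.68 and 0.08), CBF5 (0.78 and -0.03) and NOP56 (0.55 and 0.20), each higher on replicate 1. The calls of CBF5 and NOP56 on GABA ended with the replicate block (adjusted p = 0.0820 and 0.0787). Methionine raised 1 of 35, NOP7, and lowered 0 (12.7% and 11.1%), and ornithine raised 1 of 32, NOP58, and lowered 1, UTP30 (10.5% and 10.1%). The NOP7 call on methionine ended with the replicate block (adjusted p = 0.0724) and without replicate 2, the NOP58 call on ornithine ended when either array was left out, and the UTP30 call there without replicate 2.

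**Figure D3:**
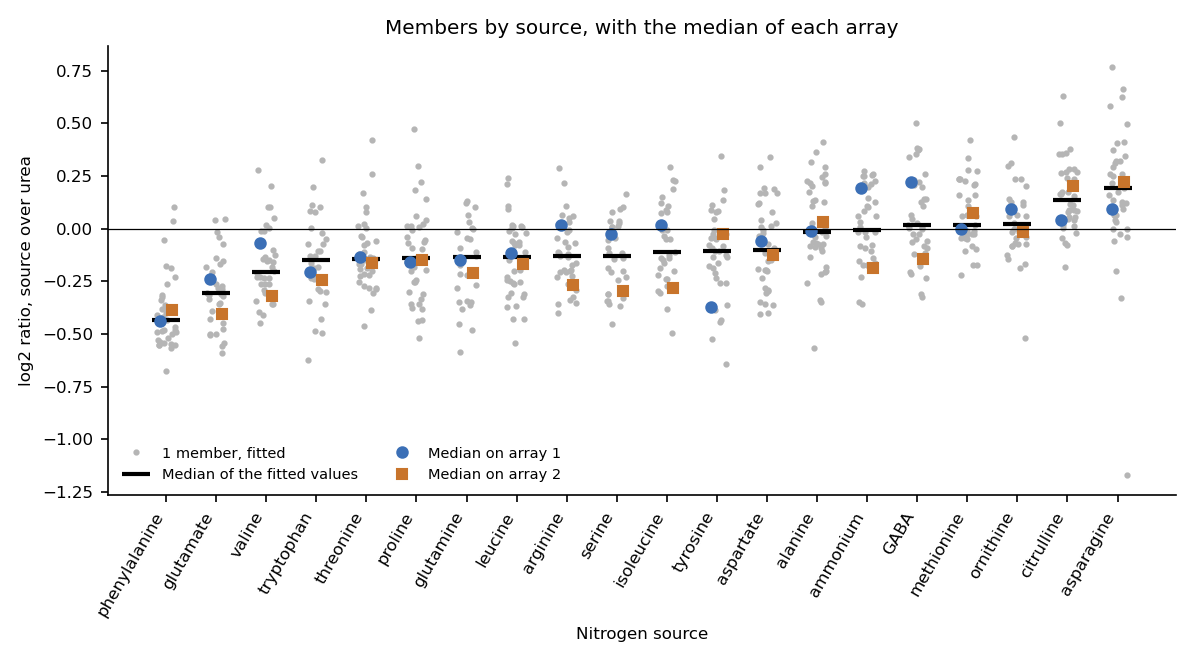
Log2 ratios of source over urea for the members on each of 20 sources. Grey points are fitted values of single members, bars their median, blue circles the median over the members on replicate 1 (array 1) and orange squares that on replicate 2 (array 2); the 2 array medians lie close together on phenylalanine (-0.44 and -0.39) and on opposite sides of 0 on ammonium (0.19 and -0.19) and GABA (0.22 and -0.14).

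Taking the 2 arrays of a source apart shows how far single values can be read. Of 748 pairs of readings, 1 pair for each member and source with both arrays, 433 (57.9%) lay on the same side of 0, and so did 91 of the 93 calls. A call needs a large mean of the same 2 readings, so agreement in sign among the calls was largely set by how they were chosen. The member medians of the 2 arrays correlated at 0.50 over the 18 sources with both dye orientations, and at 0.27 over 16 of them without phenylalanine and glutamate. These are descriptions, since every array shares urea RNA and the array numbers share a dye. Of the 93 calls, 90 did not pass when 1 of the 2 arrays of their source was left out. A test without 1 array has a larger SE, so a call can end although its 2 arrays gave like values. The dye term passed for 18 of 39 members, where 47.1% of all genes did, and ran from -0.19 (UTP8) to 0.35 (NOP4).

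The snoRNP proteins, which carry out the chemical modification of ribosomal RNA, held 10 of the 18 rises, in 100 of the 704 values. That share of 10% was near the 10.1% of all gene values that rose. The box C/D proteins NOP1, NOP56 and NOP58 had 7 rises and 1 fall over 60 values (median 0.05), and the H/ACA proteins CBF5 and GAR1 had 3 rises and 3 falls over 40 (median 0.08). All 5 passed the F-test. NOP58 ran from -0.18 on phenylalanine over a median of 0.11 to 0.66 on asparagine, was above 0 on 16 of 20 sources and rose on 5 of them, alanine, asparagine, citrulline, GABA and ornithine. NOP56 ran from -0.23 to 0.77 and CBF5 from -0.55 to 0.49, with the same lowest and highest source. NOP1, the box C/D methyltransferase gene, had no rise and 1 fall, at -0.57 and -0.54 on phenylalanine (fitted -0.55 ± 0.16, n = 2, adjusted p = 0.0167). GAR1 was lowest on tyrosine and tryptophan (fitted -0.64 and -0.62), where CBF5 was fitted at -0.08 and 0.00, and both rose on GABA.

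The 90S pre-ribosome genes are the largest role, with 307 of the 704 values. The 18 tested of 21 had 42 falls (13.7%, beside 10.7% of all member values and 9.42% of all gene values) and 2 rises over these values (median -0.12), and 11 passed the F-test. UTP25 fell on 11 of 18 tested sources and UTP10, a large scaffold protein gene of the UtpA complex, on 10 of 19, each with 17 sources below 0. Of the 42 falls of this role, 11 were thus those of UTP25 and 10 those of UTP10. The excess over the share of all genes rests on these 2 genes and is not a trait of the whole role. UTP25 ran from -0.57 on phenylalanine over a median of -0.35 to 0.11 on citrulline, and UTP10 from -0.54 on phenylalanine over a median of -0.31 to 0.16 on citrulline. Falls on so many sources are also a statement about urea, whose RNA is on every array. UTP30, which resembles a ribosomal protein, had the third lowest mean of the members after UTP25 and BRX1, -0.25 (SD 0.17 over 19 sources), with falls on leucine and ornithine. NSR1, the yeast nucleolin gene, was the most scattered of this role (residual SD 0.32) and ran from -0.49 on isoleucine to 0.58 on asparagine. UTP5, UTP7, UTP18 and RRP5 had no rise and no fall.

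Of the 5 DEAD-box helicase genes, which open RNA duplexes during assembly, 4 were tested. They had 8 falls (10.8%) and 1 rise (1.35%) over 74 values, beside 9.42% and 10.1% of all gene values. The share of falls was thus near that of genes in general. Their median of -0.18 was the lowest of the roles. DBP3 fell on 4 sources, glutamate, glutamine, phenylalanine and serine, DBP9 on 2 and DRS1 on 1. HAS1 fell on leucine (-0.25 and -0.60) and rose on asparagine (0.32 and 0.50).

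The early large-subunit factors had 18 falls (10.7%) and 5 rises (2.98%) over 168 values (median -0.06). Of all gene values 9.42% were falls and 10.1% rises, so the share of falls was near that of genes in general. Of the 5 rises, 4 were those of NOP7. NOP7, a scaffold protein gene that acts with ERB1 and YTM1, had the highest mean of all members, 0.23 (SD 0.20 over 20 sources), and was above 0 on 18 sources. It read far higher with the source in Cy5: on ammonium 0.72 against -0.17, on isoleucine 0.92 against -0.46 and on citrulline 0.91 against 0.09, with a dye term of 0.30. On tryptophan and tyrosine, with the source in Cy3 on both arrays, all 4 readings of NOP7 were below 0 (-0.41 to -0.03) while the fitted values were 0.11 and 0.08. YTM1, its partner, had no rise and 1 fall, on phenylalanine, and a mean of -0.04. RRS1 was lower on 7 of 19 sources, aspartate, glutamate, glutamine, phenylalanine, proline, serine and tryptophan, and its residual SD of 0.12 was the smallest of the members. Its phenylalanine readings were -0.40 and -0.40 (fitted -0.40 ± 0.09, n = 2, adjusted p = 0.0043). NOP2 had a mean of -0.24 with 3 falls, and EBP2 a mean of 0.12 with 1 rise and a dye term of 0.24.

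The late and export factors held few calls, with 3 falls (5.45%) and 0 rises over 55 values (median -0.05). Of all gene values 9.42% were falls and 10.1% rises. NMD3, the export adaptor of the large subunit, and NUG1, a nuclear GTPase gene, each fell on phenylalanine alone, with readings of -0.53 and -0.22 for NMD3 and of -0.44 and -0.39 for NUG1. TIF6, which keeps the subunits from joining too early, was at 0.10 on phenylalanine and fell on tryptophan (-0.38 and -0.35, fitted -0.36 ± 0.12, n = 2, adjusted p = 0.0412).

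**Figure D4:**
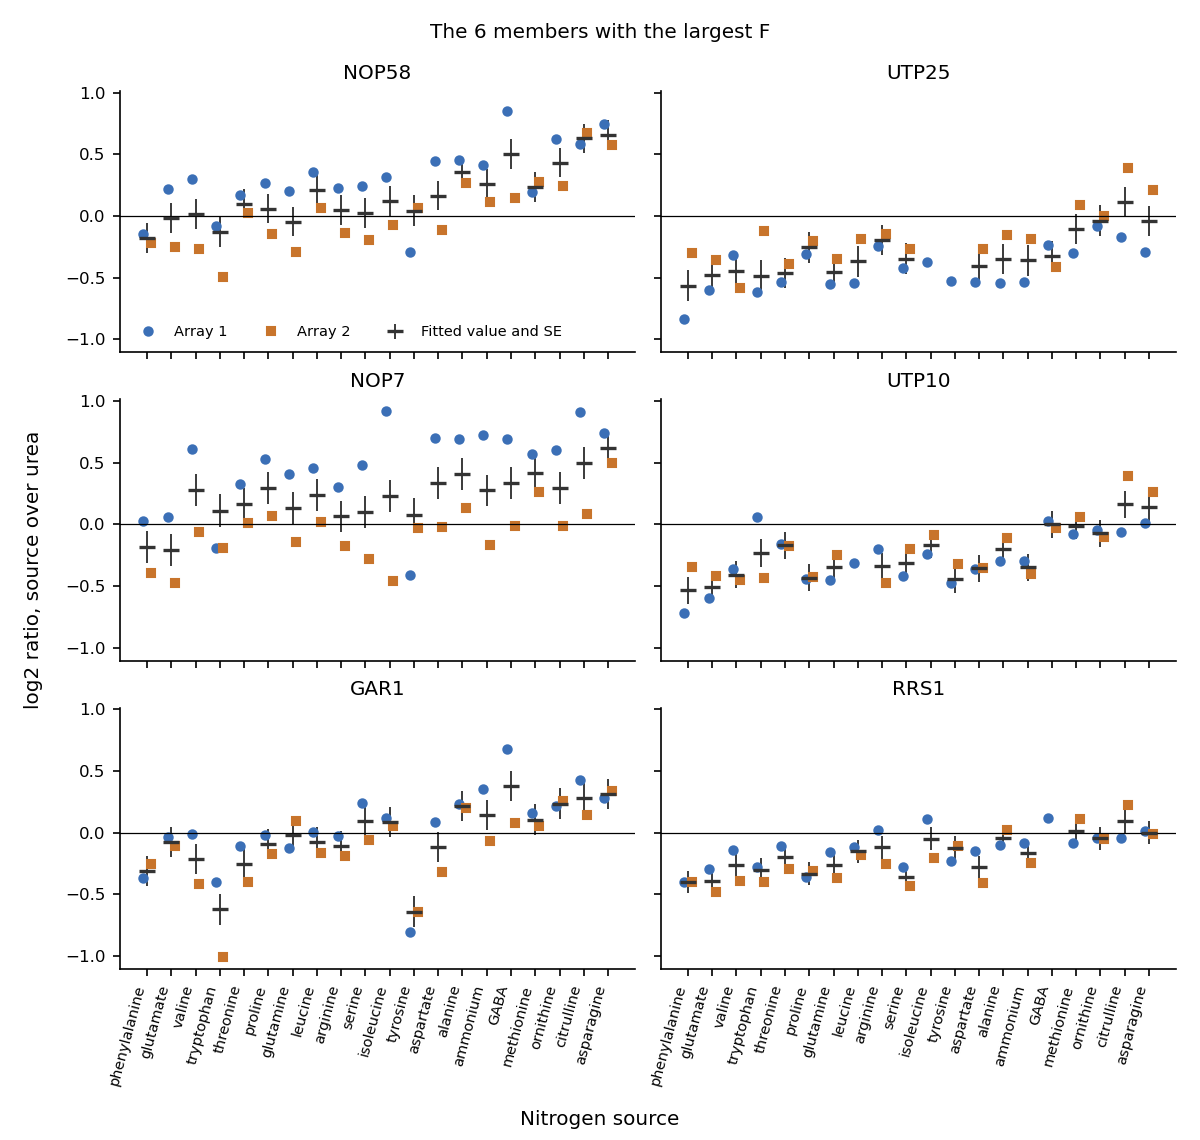
Log2 ratios of source over urea for the 6 members with the largest F, on 20 sources ordered by the median of the members. Circles are replicate 1 (array 1), squares replicate 2 (array 2), bars the fitted value with its SE; NOP58 and NOP7 reach 0.66 and 0.62 on asparagine, UTP25 and UTP10 lie below 0 on 17 sources each, and GAR1 is lowest on tyrosine and tryptophan.

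A source can also be set against the mean of the other sources, which takes out whatever all of them share against urea. In that comparison asparagine was higher for 7 of 39 members, where 2.17% of all genes were, and citrulline for 4 of 38, where 5.92% were. The 7 on asparagine were NOP56 (0.66 above the other sources), HAS1 (0.56), NOP58 (0.51), UTP9 (0.45), NOP7 (0.42), CBF5 (0.41) and UTP10 (0.40), so 2 processome genes that did not pass against urea were among them. The 4 on citrulline were NOP58 (0.48), UTP23 (0.45), UTP25 (0.45) and UTP10 (0.43). Without an asparagine array the count there was 2 (without replicate 1) or 0 (without replicate 2), and it was 4 with the replicate block. On citrulline it was 8 without replicate 1 and 0 without replicate 2.

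Phenylalanine was lower than the other sources for 2 of 37 members, CBF5 (-0.69) and UTP23 (-0.44), where 0.384% of all genes were lower, and the median member was at -0.36 with 36 of 37 below 0. That count was 0 without replicate 1, 1 without replicate 2 and 0 with the replicate block. On glutamate no member passed in limma's test. Of the 3613 genes tested there 26 were lower and 14 higher, so 0 members is near the share of all genes. Among the 34 members, 16 had an unadjusted p under 0.05, and the median was -0.25 with 32 below 0. Tryptophan was higher for 1 of 32 members, NOP12 (0.55), where 9.59% of all genes were, and lower for 1, GAR1 (-0.62), where 6.08% were. Tyrosine was lower for 1 of 35, GAR1 again (-0.64), where 2.81% of all genes were. Without replicate 1 and replicate 2 the tryptophan counts were 1 and 0 rises and 2 and 0 falls, and the tyrosine counts 0 and 3 falls. With the replicate block, tryptophan was lower for 3.

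No member passed between classes of sources. For the 7 amino acids that yeast breaks down to fusel alcohols (leucine, isoleucine, valine, methionine, phenylalanine, tyrosine and tryptophan) against the 13 other sources, 0 of 39 members passed in limma's test, where 2.92% of all genes did, and 8 members had an unadjusted p under 0.05. The median difference was -0.10, and 36 of 39 were below 0. GAR1 averaged -0.24 ± 0.31 (SD, n = 7 sources) in the fusel class and 0.08 ± 0.20 (n = 13) on the other sources, with the smallest adjusted p of 0.0941. With threonine placed in the fusel class, or with arrays in place of sources as the unit, 3 members passed. The share of all genes was not taken in these settings. With arrays as the unit, the arrays of 1 source count as independent although they share that source, so its p-values are too small for a statement about sources. For the preferred sources ammonium, asparagine and glutamine against the 17 others, 0 of 26 members passed, where 0.133% of all genes did, with 1 at an unadjusted p under 0.05. There the median difference was 0.14, with 2 of 26 below 0, and the smallest adjusted p was 0.510. The preferred sources themselves lay apart, with member medians of -0.00499 on ammonium, 0.19 on asparagine and -0.14 on glutamine.

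The 9 pairs of related molecules were compared within the same model, with p-values adjusted over all genes within a pair. Citrulline, which carries a ureido group where arginine carries a guanidino group, was higher than arginine for 1 of 34 members, where 3.06% of all genes were. That member was NOP58, at 0.63 on citrulline and 0.05 on arginine, a difference of 0.58 (95% interval 0.23 to 0.93, adjusted p = 0.0459). Tyrosine, phenylalanine with a ring hydroxyl group, was higher than phenylalanine for 1 of 33, where 1.51% of all genes were. That was UTP23, at 0.09 on tyrosine and -0.49 on phenylalanine, a difference of 0.58 (0.28 to 0.87, adjusted p = 0.0337). Both counts were 0 with the replicate block. Without replicate 1 and replicate 2 of citrulline the first count was 4 and 0, and without replicate 2 of arginine it was 0. The second was 6 and 0 without replicate 1 and replicate 2 of tyrosine and 0 without either phenylalanine array.

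In the other 7 pairs 0 members passed in limma's test, with 11 at an unadjusted p under 0.05 for asparagine minus aspartate (the amide against its acid), 4 for citrulline minus ornithine, 2 for arginine minus ornithine, 1 for threonine minus serine, and 0 for glutamine minus glutamate, leucine minus isoleucine and leucine minus valine. Among all genes, those higher and lower were 1 and 25 of 3702 for asparagine minus aspartate. They were 106 and 80 of 3075 for citrulline minus ornithine and 1 and 2 of 3117 for arginine minus ornithine. They were 90 and 12 of 2972 for threonine minus serine and 5 and 16 of 2871 for glutamine minus glutamate. Leucine gave 20 and 15 of 2953 against isoleucine and 50 and 13 of 3864 against valine. In most of these pairs 0 members is thus near the share of all genes. Median differences were 0.28 for asparagine minus aspartate and 0.09 for glutamine minus glutamate, so both amides stood above their acids at the median. They were 0.15 for citrulline minus ornithine, -0.17 for arginine minus ornithine, 0.01 for threonine minus serine, -0.08 for leucine minus isoleucine and 0.00466 for leucine minus valine. A 95% interval of a single difference reached 0.39 to 0.40 to either side at the median member.

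The members shared a profile over the sources. For the 15 members with values on all 40 arrays, the fitted values over 20 sources correlated between members with a median r of 0.56 over 105 pairs (from -0.28 to 0.88, 98 above 0), while the median over pairs of all genes with complete values was 0.0015. Points of 1 source share their arrays and urea RNA. UTP9 was most like the mean of the other members (r = 0.92), followed by NOP58 (0.92) and NOP7 (0.88), and UTP11 (0.29) and TIF6 (0.018) were least like it. Among the 39 tested members, the lowest source was phenylalanine for 21 and glutamate for 6, and the highest was asparagine for 17 and citrulline for 12.

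Outside the members, the genes whose profile was most like the mean of the 15 complete members were RPA49, a subunit gene of RNA polymerase I (r = 0.90 over 20 sources), NOC2 of large-subunit assembly (0.87), PRT1 of translation initiation (0.86), SOF1 of the processome (0.85), RPC40, a subunit gene shared by RNA polymerases I and III (0.85), HGH1 (0.84), ESF1 of small-subunit processing (0.83) and STM1, which binds ribosomes (0.83). RPA49 ran from -0.60 on phenylalanine to 0.48 on asparagine. Of the 50 most similar genes, 15 (30%) stood in the 6 lists of related genes, which hold 40 (3.22%) of the 1241 complete genes that are not members.

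The lists, and the cytosolic ribosomal protein genes beside them, were also read on the sources at either end of the members' order. On phenylalanine 20 of 44 other large-subunit assembly factors fell and 0 rose (median -0.34), 20 of 41 other processome factors fell and 0 rose (median -0.35), and 3 of 5 RNA polymerase I subunits fell and 0 rose (median -0.41). Of the cytosolic ribosomal protein genes, 42 of 134 fell and 0 rose there (median -0.35). Glutamate lowered 13 of 37, 9 of 33, 1 of 5 and 48 of 127 of these lists, and on asparagine 8 of 43, 5 of 40, 2 of 6 and 21 of 134 rose. In the other direction went 1 ribosomal protein gene on glutamate, and 1 large-subunit factor and 5 ribosomal protein genes on asparagine. Of all genes tested, 9.8% fell and 10.6% rose on phenylalanine, and 9.87% fell on glutamate. On asparagine 10.4% of all genes rose and 14.7% fell. In the remaining lists, 1 of 10 other snoRNP and modification proteins fell on phenylalanine (median -0.08) and 1 of 12 rose on asparagine (median 0.07). Of the genes of RNA polymerase III, 3 of 8 fell on phenylalanine (median -0.26), and on asparagine 0 of 8 rose and 1 fell (median 0.04). Of the regulators 2 of 11 rose and 0 fell on phenylalanine (median -0.03), and 0 of 10 rose on asparagine (median 0.03). These differences between lists were not tested. DBP10, a helicase gene of large-subunit assembly, was at -0.65 on phenylalanine, and RPA43 of RNA polymerase I ran from -0.61 on phenylalanine to 0.35 on asparagine. Copies of ribosomal protein genes are nearly identical in sequence, and their probes were not tested for cross-hybridisation.

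Cytosolic ribosomal protein genes stood apart from the members on some other sources, a difference that was not tested. Their median was -0.27 on ammonium, -0.36 on proline and -0.19 on ornithine, where the members had medians of -0.00499, -0.14 and 0.02. Over all values 14.6% of the ribosomal protein values were falls and 1.81% rises. Single genes of the lists departed from urea on many sources. LCP5, another processome gene, rose on 10 sources and fell on 0 (mean 0.30), NAF1, which helps assemble H/ACA snoRNPs, rose on 5 (mean 0.32), and DIM1, a methyltransferase gene of small-subunit RNA, fell on 10 (mean -0.29). Among the sources where it was tested, DOT6, a repressor gene of this regulon, was highest on phenylalanine (0.50 ± 0.12, n = 2, adjusted p = 0.00736). It also rose on valine (0.43, adjusted p = 0.0208) and was at 0.17 on glutamate (adjusted p = 0.346). DOT6 was above 0 on every source where it was tested, from 0.03 on tyrosine. It was at 0.22 on alanine and 0.21 on GABA, where the members were not low. The 11 tested regulators had 18 rises (9.33%) and 12 falls (6.22%) over 193 values. Of all gene values 10.1% were rises and 9.42% falls.

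**Figure D5:**
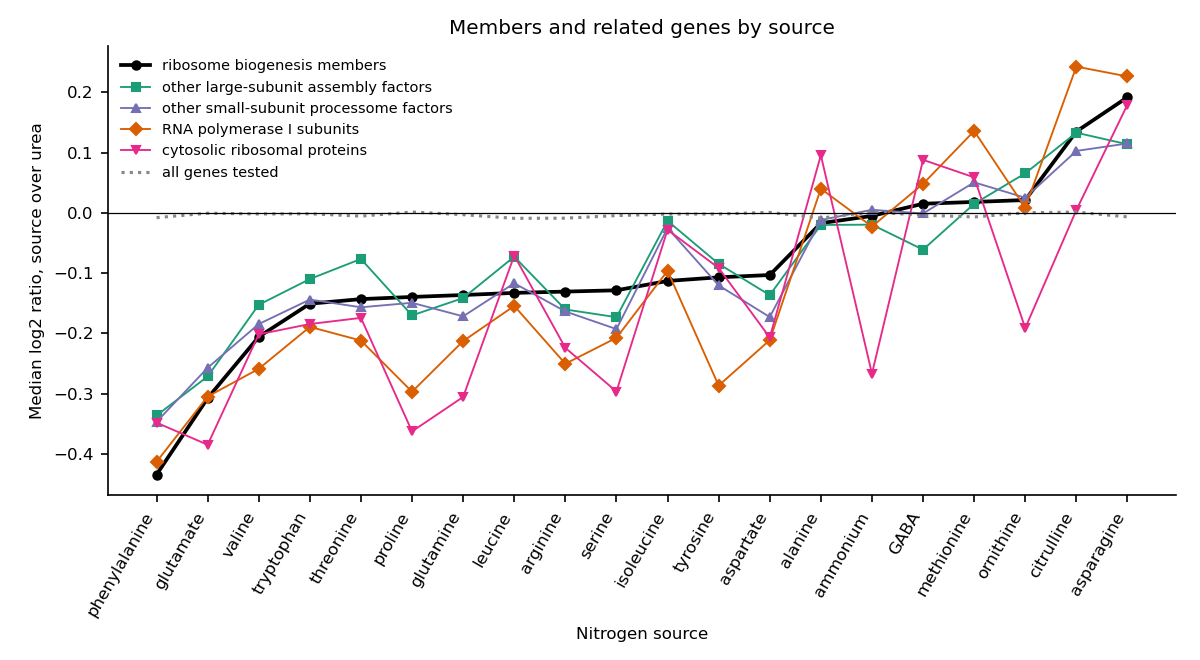
Median log2 ratio of source over urea on 20 sources for the members (black circles), other large-subunit factors (green squares), other processome factors (violet triangles), RNA polymerase I subunits (orange diamonds), cytosolic ribosomal proteins (pink triangles) and all genes tested (dotted). All 4 lists and the members are below -0.3 on phenylalanine and above 0.1 on asparagine, and the ribosomal proteins are apart from the members on ammonium (-0.27 for the ribosomal proteins).

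The 6 members without enough arrays for the test had few readings. ERB1 was read on both arrays of 10 sources, with means of the 2 readings from -0.72 on leucine to 0.06 on citrulline (median -0.42). UTP13 ran from -0.47 on leucine to 0.60 on GABA over 9 sources, RPF2 from -0.49 on serine to 0.02 on asparagine over 9 and UTP20 from -0.25 on phenylalanine to 0.22 on leucine over 9. MAK5 and RRP9 were read on both arrays of 4 and 3 sources and lay between -0.12 and 0.13.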

How the data were processed

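Members, related lists, roles and tests were chosen with earlier results of these data known. The authors deposited 1 value per spot, a centred ratio of the 2 channels taken here as log2 of Cy5 over Cy3: per the labels, the dyes give the direction, the values show a log scale, and base 2 is an assumption. Not given in the sources used here are scanner, background correction, filters, normalization and genome build, and whether the 2 tables were normalized together. Probe names came from the platform annotation (12800 probes per table, of which 10890 and 11188 named 1 gene). Spots of a gene were averaged (2 per member at most) and ratios turned to source over urea.

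The tables were read in Python 3.11.15 (pandas 2.3.3, numpy 2.4.6) and figures drawn with matplotlib 3.10.9. In R 4.3.3 with limma 3.58.1 and statmod 1.5.0, 1 model over 40 arrays held 20 source terms and a dye term, with moderated spread (prior degrees of freedom 6.27, and 19 residual ones where no array lacks a value). Tests were two-sided with Benjamini-Hochberg adjustment over all genes tested, within a source, class or pair. In class tests the source was the unit. The model was tested on simulated data. Dye orientation, table and replicate number coincide for 18 sources and cannot be told apart there.

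Replicate numbers were checked as pairs: for the 18 sources with both orientations, replicate 1 minus replicate 2 was taken per gene, and these differences correlated between sources at over 0.1 in all 153 pairs (median 0.438). Replicate 1 was in Cy5 and replicate 2 in Cy3 for all 18, so a dye or table effect enters every one of these differences. The correlations therefore cannot show that arrays of the same number are paired. The fit with a replicate block is given beside the calls against urea that it ended.

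Named members were those with the 6 largest F, the 5 highest and 5 lowest means, up to 2 highest and 2 lowest per source past the threshold with both arrays in that direction, up to 2 per direction in a pair and up to 5 in a class, and in each role those with the largest F and residual SD. Named other genes were 2 per related list with the largest absolute mean past the F-test and the 8 most like the member mean. Some were left out for space, and others were named after their values were seen, among them members that made up a small count. Alternatives tried were array weights, subtracted array medians, the replicate block, a model without dye, the median of a gene's spots, genes on at least 20 arrays or on all 40, the 36 arrays with both orientations alone, leaving out each array in turn, other class settings (tryptophan and tyrosine left out, threonine among the fusel sources, glutamate and aspartate among the preferred, arrays as the unit), and members without the 15 UTP genes, the last added after the data were seen.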

Additional observations from a re-analysis of the deposited data

Results flagged for a closer look

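In 2 of the pairs of related molecules a member differed between the sources by a test of the difference itself. These were 1 of 34 members (2.94%) for citrulline minus arginine, beside 3.06% of all genes, and 1 of 33 (3.03%) for tyrosine minus phenylalanine, beside 1.51% of all genes. NOP58, the box C/D snoRNP gene, was 0.58 higher on citrulline than on arginine (0.63 on citrulline and 0.05 on arginine, 95% interval of the difference 0.23 to 0.93, adjusted p = 0.0459 in limma's contrast). Its readings were 0.58 and 0.68 on the citrulline arrays and 0.23 and -0.13 on the arginine arrays. UTP23, of the small-subunit processome, was 0.58 higher on tyrosine than on phenylalanine (0.09 on tyrosine and -0.49 on phenylalanine, 0.28 to 0.87, adjusted p = 0.0337). Its readings were -0.26 and 0.18 on the tyrosine arrays and -0.50 and -0.48 on the phenylalanine arrays. Both tyrosine arrays carried the source in Cy3, and the dye term of UTP23 was 0.13, so its fitted tyrosine value rests on a dye term estimated from the other sources. Without the dye term, with the replicate block or with array weights, 0 members passed in either pair. For citrulline minus arginine 1 passed without arginine replicate 1, 0 without arginine replicate 2, 4 without citrulline replicate 1 and 0 without citrulline replicate 2. For tyrosine minus phenylalanine 0 passed without either phenylalanine array, 6 without tyrosine replicate 1 and 0 without tyrosine replicate 2.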

How the results depend on the processing

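Of the 93 member values that passed against urea, the call was kept for 43 without the dye term, 76 with the replicate block, 89 with array medians subtracted, 88 with genes on at least 20 arrays, 93 with the median of spots and 81 with array weights. It was kept for 35 of 35 with genes on all 40 arrays and for 85 of 85 on the 36 arrays with both orientations. Leaving out 1 array kept 34, ended 151 and reversed 1 of 186 values, the reversed one being BRX1 on asparagine (0.12 without replicate 1, -2.46 without replicate 2). Only 3 calls held without either array, 2 rises and 1 fall, and 90 ended. Leaving out 1 of 2 arrays also raises the SE, so a call can end although the 2 arrays gave like values. UTP21 on proline, among the calls that ended, was at -0.516 without replicate 1 and -0.518 without replicate 2. The count of ended calls therefore does not show how many rest on 1 array.

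Without the dye term, rises on asparagine numbered 3 in place of 6, falls on glutamate 6 in place of 11, falls on phenylalanine 13 in place of 21, all rises 4 in place of 18, all falls 39 in place of 75, members past the F-test 16 in place of 26, and members above the other sources on asparagine 2 in place of 7. On the 18 sources with both orientations the fitted values against urea are the same without the dye term, and the estimated spread differs. With the replicate block, all rises were 10 and members above the other sources on asparagine 4. It ended 17 of the 93 calls against urea and changed none of the others, with 1 further fall, on tryptophan. On genes with all 40 arrays the member medians were 0.20 on alanine and 0.23 on GABA, falls numbered 3 on glutamate, 7 on phenylalanine and 21 in all, and 14 members passed the F-test; fewer members were tested there. With array weights, rises on asparagine numbered 13, members above the other sources on asparagine 16, and members below them on phenylalanine 10 in place of 2. Without the 15 UTP genes, an alternative chosen after seeing the data, falls numbered 7 on glutamate and 45 in all, and 16 members passed the F-test; fewer members were counted there. In the fusel class 3 members passed with threonine added and 3 with arrays as the unit, in place of 0. The last setting counts the arrays of 1 source as independent, which they are not.

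Leaving out 1 array of the source gave member medians from -0.12 to 0.16 on ammonium, 0.0698 to 0.37 on asparagine, -0.0358 to 0.20 on GABA and -0.30 to 0.049 on tyrosine. Rises on asparagine were 3 without either replicate, members above the other sources on asparagine 0 to 2, falls on glutamate 0 to 1 and falls on phenylalanine 0 to 10. Where no reason is stated, the cause was not tested.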
